A study of Homo sapiens with 12 samples.

Results

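Interferon-stimulated genes were examined in differentiated Caco-2 cells exposed to silver. A list of 41 such genes was used, and the probe set standing for each was selected on the mean over the 12 arrays, the highest among those annotated to that symbol alone. Of the 41 genes, 40 were measured, out of 19775 genes on the array. STAT2 was not analysed here. That choice of probe set used overall levels and no contrast, although the list itself was drawn up with earlier results of these data in view.

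Caco-2 is a human colon carcinoma line whose cells take on features of small-intestinal enterocytes when held after confluence. Cells at passage 22 were grown for 21 days after confluence in 75 cm² flasks and then kept for 24 h in 20 mL of medium with 1% insulin, transferrin and selenium. All groups also carry an entry of 10% serum, which is not assigned here to growth or to exposure. The 4 groups of 3 arrays each received silver nanoparticles with a surfactant coat (AgPURE) at 25 µg/mL, the same particles at 2.5 µg/mL, 0.5 µg/mL silver ions given as AgNO3, or medium alone. Cells given the surfactant without silver were not analysed here, and the nanoparticle and ion doses differ. Whether a group's 3 arrays hold separate cultures is not stated in the labels, and the p-values therefore rest on array-to-array spread that may be technical. All groups carry 1 cell line, so no result speaks to other intestinal cells.

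Cells that detect foreign RNA or DNA secrete type I and type III interferons, which act back on the same and neighbouring cells through JAK kinases. The kinases activate a complex containing STAT2 and IRF9 that binds the interferon-stimulated response element in the promoters of its targets. Their products block viral entry, translation and replication, and several of them are the sensors and transcription factors of the pathway itself. Epithelial cells of the gut are known for their response to type III interferon.

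The response element has a recognisable core, and the promoters of the members with the largest falls at 25 µg/mL that hold it are shown for that reason. A core was counted where GAAA was followed by any 2 bases and then GAAA, on either strand, in the 250 bases before the start site (RefSeq, GRCh38.p14). Capitals mark the cores, which overlap where the marked run is longer than 10 bases. Each window lies upstream of the start site and reads 5′ to 3′ on the gene's strand. IFIT1 is at chr10:89392482-89392554 (+), ISG15 at chr1:1013359-1013424 (+), IFIT3 at chr10:89327816-89327909 (+), IFIH1 at chr2:162318685-162318868 (-) and IFITM1 at chr11:313975-314034 (+).
IFIT1: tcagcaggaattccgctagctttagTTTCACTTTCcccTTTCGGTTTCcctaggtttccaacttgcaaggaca
ISG15: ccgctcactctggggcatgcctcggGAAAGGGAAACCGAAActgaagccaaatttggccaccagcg
IFIT3: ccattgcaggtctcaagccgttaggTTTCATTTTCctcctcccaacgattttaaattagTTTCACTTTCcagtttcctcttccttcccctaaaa
IFIH1: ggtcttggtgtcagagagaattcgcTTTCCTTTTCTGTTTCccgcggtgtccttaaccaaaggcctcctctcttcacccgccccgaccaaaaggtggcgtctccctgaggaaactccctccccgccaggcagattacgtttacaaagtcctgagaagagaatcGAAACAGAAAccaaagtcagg
IFITM1: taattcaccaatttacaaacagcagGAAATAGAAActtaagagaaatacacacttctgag

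Promoter sequences were matched for 33 of the 41 genes. Of these, 16 (48.5%) held at least 1 core, against 839 of all 27305 promoters in the reference (3.07%). Among members lower at 25 µg/mL, 13 of 24 (54.2%) held a core, and among members with no call there 3 of 7 (42.9%) did. Over all genes called lower at 25 µg/mL the share was 2.63% (82 of 3115), against 2.48% (381 of 15384) over all genes tested that had a promoter sequence. OAS1 and UBE2L6, which fell more than IFITM1, had no match in this window. IFIT2, which also fell more than IFITM1, was among the genes without a promoter sequence. A match is a run of letters and does not show that a factor binds there.

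At 25 µg/mL nanoparticles, 27 of the 40 members fell, 1 rose and 12 did not pass the test against medium (limma, Benjamini-Hochberg adjusted p under 0.05 over all genes). That is 67.5% of members lower. Of all genes tested, 19.3% were called lower (3811 of 19775) and 14.1% higher (2796 of 19775). The median log2 fold change of the members was -0.73, and that of all genes was -0.01. Counts of 11 members and 447 genes (2.26% of all) were at least 2-fold lower. All fold changes are differences of the deposited log2 values, and with bulk RNA fewer cells of a type and less RNA per cell cannot be told apart.

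The shift stood on each array. Relative to the medium mean, the median member lay at -0.74, -0.66 and -0.67 on the 3 arrays at 25 µg/mL, whereas on the other 9 arrays it lay between -0.13 and 0.08. The median over all genes lay at 0.002, -0.028 and -0.030 on those 3 arrays, and between -0.008 and 0.023 on the other 9. On the 3 arrays at 25 µg/mL, 35, 37 and 34 of the 40 members were below their medium mean. The number of all genes below theirs was not counted, for these or the other arrays. On the arrays at 2.5 µg/mL 25, 20 and 18 were, with ions 15, 33 and 23, and in medium 11, 18 and 28, so the second ion array came close in number though its median member was only at -0.12. In 28 members all 3 arrays at 25 µg/mL were below each of the other 9 arrays, and 17.8% of all genes (3522) showed that arrangement. The 28 are the 27 members called lower and MX1.

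**Figure D1:**
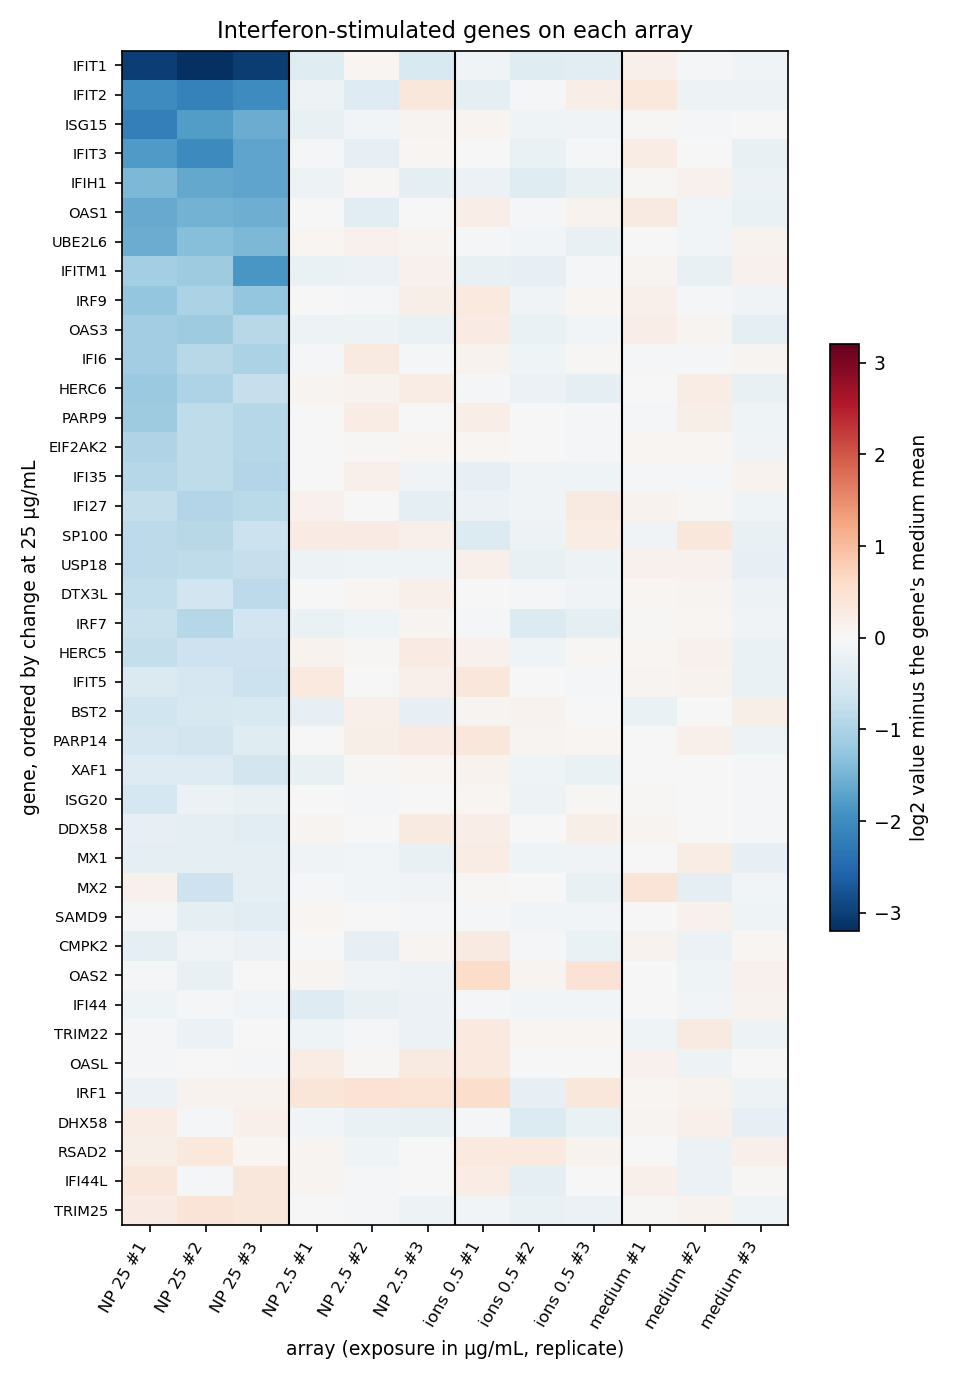
Each row is a member and each column an array, grouped as nanoparticles at 25 µg/mL, nanoparticles at 2.5 µg/mL, silver ions at 0.5 µg/mL and medium. Colour is the log2 value minus the gene's medium mean. The blue block is confined, among the 12 arrays shown, to the upper rows of the 3 arrays at 25 µg/mL.

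Most of the antiviral effectors fell. Of 17 measured, 10 were lower and 7 were not called, with a median log2 fold change of -0.54. Counts by role, here and below, are to be read against the 19.3% of all genes called lower and the 14.1% called higher. The share lower was 31.6% in genes at or above the median level of all genes and 6.99% in dimmer ones. The IFIT genes, which lie close together on chromosome 10 and encode proteins that bind viral RNA and block its translation, included the largest falls. IFIT1 read 4.70, 4.47 and 4.65 at 25 µg/mL, 7.31, 7.77 and 7.20 at the 2.5 µg/mL dose, 7.58, 7.31 and 7.33 with silver ions, and 7.85, 7.66 and 7.59 in medium. The 3 arrays at 25 µg/mL were far below all others, and the fall was 8.52-fold (log2 -3.09 ± 0.14 SE, limma adjusted p = 1.8e-09). In medium IFIT1 stood above 68.7% of genes and at 25 µg/mL above 33.4%. No detection calls were used here, so the level at which it ceases to be measurable is not known.

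IFIT2 read 4.82, 4.67 and 4.83 at 25 µg/mL, 6.68, 6.42 and 7.21 at the 2.5 µg/mL dose, 6.55, 6.80 and 7.06 with ions, and 7.17, 6.69 and 6.67 in medium. It was 4.19-fold lower at 25 µg/mL than in medium (log2 -2.07 ± 0.18 SE, limma adjusted p = 1.1e-06), with no overlap between that group and the rest. IFIT3 read 5.75, 5.53 and 5.89 at 25 µg/mL, 7.52, 7.31 and 7.62 at the 2.5 µg/mL dose, 7.59, 7.36 and 7.54 with ions, and 7.81, 7.57 and 7.33 in medium. Its fall was 3.59-fold (log2 -1.84 ± 0.13 SE, limma adjusted p = 1.2e-07). The fourth gene of the cluster, IFIT5, moved least, at -0.56 ± 0.12 (adjusted p = 0.0026).

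Among the 2′-5′ oligoadenylate synthetases, which activate RNase L when they bind double-stranded RNA, OAS1 and OAS3 fell and their neighbour OAS2 did not pass the test on the probe set used. OAS1 read 6.64, 6.74 and 6.68 at 25 µg/mL, 8.25, 7.91 and 8.25 at the 2.5 µg/mL dose, 8.47, 8.21 and 8.35 with ions, and 8.54, 8.17 and 8.04 in medium. OAS3 read 6.80, 6.78 and 7.02 at 25 µg/mL, 7.75, 7.75 and 7.70 at the 2.5 µg/mL dose, 8.17, 7.71 and 7.83 with ions, and 8.13, 8.002 and 7.59 in medium. In both genes the highest array at 25 µg/mL was below the lowest of the other 9. OAS1 was 2.96-fold lower (log2 -1.56 ± 0.13 SE, limma adjusted p = 5.2e-07). OAS3 was 2.06-fold lower (log2 -1.04 ± 0.14 SE, limma adjusted p = 4.0e-05). OAS2 averaged 4.24 at 25 µg/mL and 4.34 in medium, far dimmer than both, and differed by -0.10 (adjusted p = 0.60). Of its other 2 probe sets, 1 was lower (-0.32, adjusted p = 0.020 over every probe set) and 1 was not called (-0.04). OASL, a related protein without synthetase activity, differed by -0.03 (adjusted p = 0.89).

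IFITM1, which hinders fusion of enveloped viruses with cell membranes, read 8.27, 8.23 and 7.49 at 25 µg/mL, 9.13, 9.17 and 9.50 at the 2.5 µg/mL dose, 9.12, 9.10 and 9.28 with ions, and 9.45, 9.12 and 9.49 in medium. It was 2.57-fold lower (log2 -1.36 ± 0.18 SE, limma adjusted p = 3.2e-05), and the third array at 25 µg/mL was lower than the other two of its group. EIF2AK2, the kinase PKR that halts translation on sensing double-stranded RNA, fell by 0.90 on the log2 scale. BST2, a tether that holds budding virus at the cell surface, fell by 0.54. ISG20, an exonuclease for RNA, fell by 0.33 (limma adjusted p = 0.021). That last call was lost without the first array at 25 µg/mL (-0.21, adjusted p = 0.11), and also without the first medium array (-0.30, adjusted p = 0.067) or the second (-0.32, adjusted p = 0.054).

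The 7 effectors without a call were MX1, MX2, OAS2, OASL, RSAD2, SAMD9 and CMPK2, and each lay below the median level of all genes (5.80). MX1, a GTPase that traps viral nucleocapsids, read 3.79, 3.79 and 3.78 at 25 µg/mL, 3.96, 3.995 and 3.85 at the 2.5 µg/mL dose, 4.32, 3.96 and 3.96 with ions, and 4.10, 4.33 and 3.82 in medium. Its 3 arrays at 25 µg/mL were the lowest of the 12, although the difference from medium was only -0.29 ± 0.12 (limma adjusted p = 0.086). Without the third medium array it was -0.43 (adjusted p = 0.016), and without the first ion array it stayed at -0.29 with an adjusted p of 0.049. SAMD9, a restriction factor for poxviruses, stood at -0.24 (adjusted p = 0.076), and it passed the test without the third medium array (-0.32, adjusted p = 0.039) or the first array at 25 µg/mL (-0.34, adjusted p = 0.018). RSAD2, or viperin, was among the dimmest genes, above 3.66% of all genes in medium, and differed by 0.19 (adjusted p = 0.20). It was called higher when the probe sets of a gene were averaged (0.22, limma adjusted p = 0.046). CMPK2, its neighbour on chromosome 2, differed by -0.21 (adjusted p = 0.27).

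**Figure D2:**
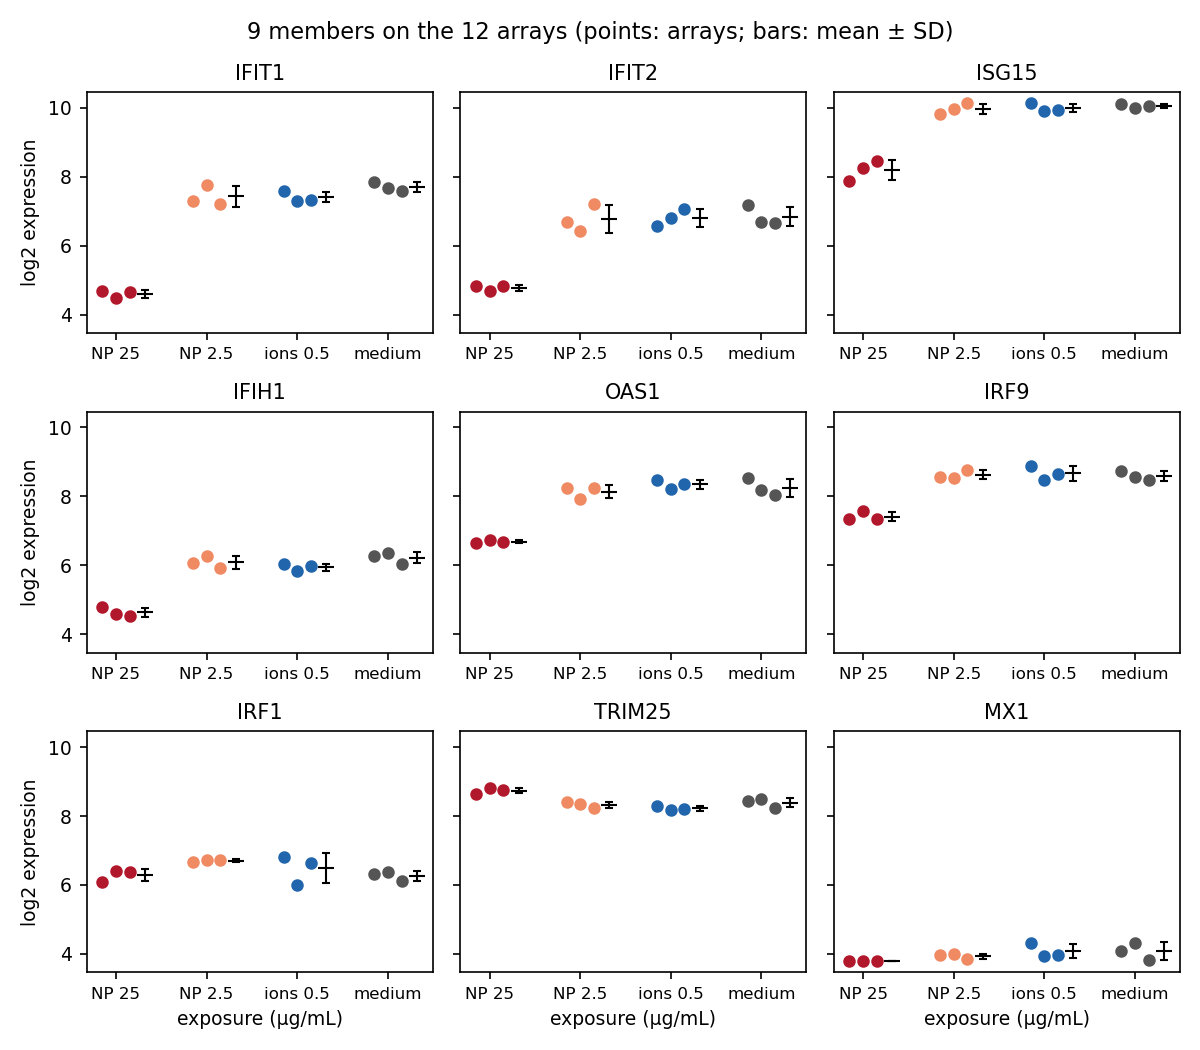
Log2 expression of 9 members on every array (points), with the mean ± SD of each group of 3 beside them. IFIT1, IFIT2, ISG15, IFIH1, OAS1 and IRF9 are separated at 25 µg/mL from the other groups, IRF1 is not, TRIM25 is slightly higher on this scale (not called, with a negative sign, after scaling on control probes), and MX1 lies low in every group.

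The sensors of viral RNA were lower in 2 of 3 cases. IFIH1, the gene of MDA5, which senses long double-stranded RNA, read 4.79, 4.58 and 4.53 at 25 µg/mL, 6.07, 6.27 and 5.91 at the 2.5 µg/mL dose, 6.02, 5.84 and 5.97 with ions, and 6.27, 6.36 and 6.04 in medium. The groups did not overlap, and the fall was 3.00-fold (log2 -1.59 ± 0.11 SE, limma adjusted p = 1.3e-07). DDX58, the gene of RIG-I, which senses RNA with an uncapped 5′ triphosphate, fell by 0.30 on the probe set chosen for its level (adjusted p = 0.024). Its other 2 probe sets gave -1.31 and -0.50, both past the threshold when every probe set was tested. The call on the chosen probe set was lost without the first medium array (-0.25, adjusted p = 0.095), the second array at 25 µg/mL (-0.30, adjusted p = 0.054) or the third (-0.27, adjusted p = 0.083). DHX58, the gene of LGP2, a regulator of the other two sensors, differed by 0.11 on the deposited scale (adjusted p = 0.56), by -0.50 and -0.31 after scaling on poly-A and on hybridization controls, and by -0.01 without the third medium array.

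Of the 4 transcription factors measured, 3 were lower, with a median of -0.78. IRF9, the DNA-binding part of the complex that interferon activates, read 7.34, 7.57 and 7.34 at 25 µg/mL, 8.57, 8.53 and 8.78 at the 2.5 µg/mL dose, 8.89, 8.46 and 8.64 with ions, and 8.74, 8.55 and 8.47 in medium. It was 2.25-fold lower with no overlap between the exposed group and the rest (log2 -1.17 ± 0.12 SE, limma adjusted p = 3.4e-06). IRF7, which amplifies interferon production, fell by 0.75, and SP100, a nuclear body protein that is itself interferon-induced, fell by 0.81. IRF1, which carries out much of the response to interferon gamma, averaged 6.29 at 25 µg/mL and 6.27 in medium. On the deposited scale it was the 1 member above the median level of all genes that passed the test in neither direction (0.01 ± 0.16, adjusted p = 0.96).

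ISG15 is a ubiquitin-like protein that interferon induces and that is attached to other proteins, and its conjugating enzyme UBE2L6, its ligase HERC5 and its protease USP18 fell with it. Of the 10 genes in this group, which also holds ADP-ribosylating partners and TRIM ligases, 8 were lower, 1 was higher and 1 was not called (median -0.78). ISG15 read 7.86, 8.26 and 8.45 at 25 µg/mL, 9.82, 9.95 and 10.13 at the 2.5 µg/mL dose, 10.14, 9.91 and 9.94 with ions, and 10.09, 9.98 and 10.06 in medium. Its fall was 3.62-fold (log2 -1.85 ± 0.13 SE, limma adjusted p = 1.2e-07), and in medium it stood above 91.8% of genes. UBE2L6, the conjugating enzyme for ISG15, read 8.05, 8.28 and 8.19 at 25 µg/mL, 9.71, 9.76 and 9.72 at the 2.5 µg/mL dose, 9.59, 9.54 and 9.40 with ions, and 9.62, 9.54 and 9.74 in medium. It was 2.75-fold lower, without overlap (log2 -1.46 ± 0.09 SE, limma adjusted p = 3.2e-08).

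The ligase for ISG15, HERC5, fell by 0.70, its neighbour on chromosome 4, HERC6, fell by 0.97, and USP18, the protease that removes ISG15 and also restrains the interferon receptor, fell by 0.80. PARP9 and DTX3L, adjacent on chromosome 3 and partners in 1 complex, fell by 0.96 and by 0.75. PARP14, an ADP-ribosyltransferase from the same stretch, fell by 0.50 (limma adjusted p = 0.0029), and its call was lost when the probe sets of a gene were averaged (-0.22, adjusted p = 0.080). TRIM22, an antiviral ligase at a level of 4.18 at 25 µg/mL and 4.25 in medium, was not called.

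TRIM25, a ubiquitin ligase that acts on RIG-I, was the member that went the other way. It read 8.65, 8.81 and 8.76 at 25 µg/mL, 8.41, 8.34 and 8.23 at the 2.5 µg/mL dose, 8.30, 8.18 and 8.20 with ions, and 8.43, 8.49 and 8.24 in medium. On the deposited scale its 3 arrays at 25 µg/mL were the highest of the 12 and the difference was 0.35 ± 0.09 (limma adjusted p = 0.0065), but it was -0.26 after scaling on poly-A controls and -0.07 after scaling on hybridization controls, neither past the threshold. A second TRIM25 probe set gave 0.35 and did not pass (adjusted p = 0.056 over every probe set).

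The remaining 6 members are interferon-induced proteins of varied function, of which 4 fell (median -0.66). IFI6, a protein of the endoplasmic reticulum and mitochondria that limits flavivirus replication, fell by 1.00 (2.00-fold). IFI35 fell by 0.89, IFI27 by 0.85 and XAF1, a partner of the apoptosis inhibitor XIAP, by 0.47. IFI44 and IFI44L, neighbours on chromosome 1 and dim at levels of 3.46 and 4.03 at 25 µg/mL and 3.55 and 3.81 in medium, differed by -0.09 and 0.22, neither past the threshold.

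**Figure D3:**
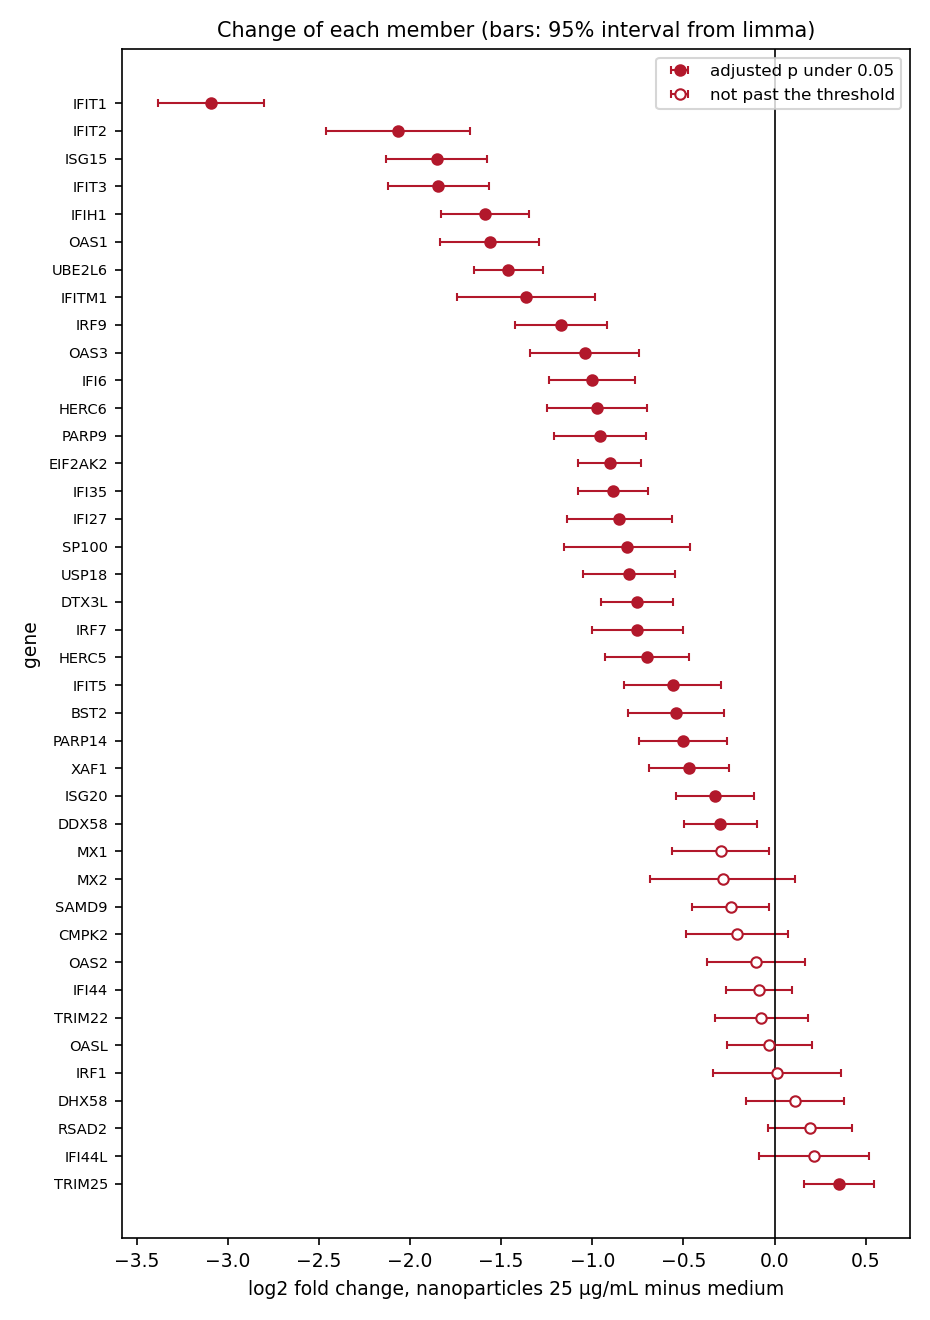
Log2 fold change of each of the 40 members at 25 µg/mL minus medium, ordered by size, with 95% intervals from limma. Filled points passed the adjusted threshold. They run from IFIT1 at -3.09 to DDX58 at -0.30 on the side of the falls, with TRIM25 alone on the other side at 0.35, a direction that turned under both control scalings.

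Level and call went together. Of 25 members with a mean at or above the median level of all genes (5.80), 23 fell, TRIM25 was called higher (not after either control scaling) and IRF1 was not called. In genes of that level 31.6% were called lower. Of the 15 dimmer members, IFIH1, IFI27, SP100 and XAF1 fell and 11 were not called, and 6.99% of the dimmer genes overall were called lower. The mean used for this split includes the arrays at 25 µg/mL, so level and change are not independent. IFIH1 averaged 6.22 in medium, above the median level, and 4.64 at 25 µg/mL. The median log2 fold change was -0.90 in the brighter members, with -0.06 in all brighter genes, and -0.21 in the dimmer members, with 0.01 in all dimmer genes. The 11 dim members without a call are not shown to be unaffected.

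**Figure D4:**
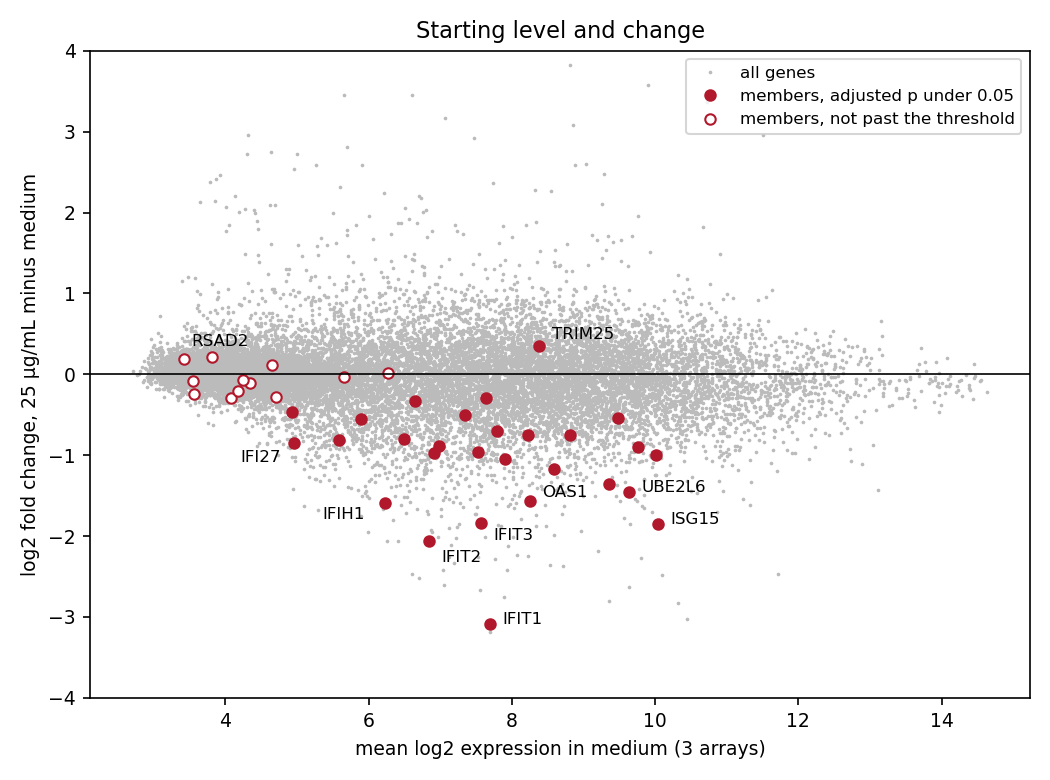
Mean log2 expression in medium against the log2 fold change at 25 µg/mL for all genes (grey) and the 40 members (red, filled where called). Below about 5 on the horizontal axis most members are open points near 0, and the members with larger falls lie from IFIH1 upward.

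A gene can have several probe sets, and 21 of the members did, giving 70 probe sets in all. With every probe set on the array tested, 15.9% were called lower (6524 of 41091). Of the 30 that were not used above, 12 were lower, 0 were higher and 18 were not called at 25 µg/mL. Among the 22 of these that belong to members called lower, 11 were lower and 16 had a negative difference. They moved more than the one used in OAS1 (-2.04 against -1.56), IFIT5 (-0.80 against -0.56), ISG20 (-0.66 against -0.33) and DDX58. They moved less in IFIT2 (-0.57 against -2.07), IFIT3 (-1.15 against -1.84), PARP9 (-0.67 against -0.96) and OAS3 (-0.17, not called, against -1.04). A smaller fall, still called, was also found in EIF2AK2 (-0.45 against -0.90), SP100 (-0.54 against -0.81) and XAF1 (-0.37 against -0.47). The other 2 of IFIH1 (0.04 and -0.05) and the second of HERC6 (0.01) and of PARP14 (0.06), all dim, were not called. Nor were a further dim probe set of EIF2AK2 (0.01) and of XAF1 (-0.04), and the remaining ones of SP100 (0.03, -0.20, 0.10 and -0.003).

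The milder exposures gave no call among the members. At 2.5 µg/mL nanoparticles against medium 0 of 40 members passed limma's adjusted threshold, as did 0% of all genes. At an unadjusted p under 0.05 there were 2 members, IFI44 (-0.28) and IRF1 (0.43), against 4.55% of all genes (900). The members ranged from -0.28 to 0.43, with a median of -0.05. IRF1 read 6.66, 6.73 and 6.71 at 2.5 µg/mL, above its 3 medium arrays at 6.33, 6.38 and 6.11, with an adjusted p of 1.00.

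With silver ions at 0.5 µg/mL against medium, 0 of 40 members and 0% of all genes passed. At an unadjusted p under 0.05 there were 5 members (12.5%), IFIT1, IFIH1, IRF7, OAS2 and RSAD2, against 6.24% of all genes (1233). Of these IFIT1 (-0.29), IFIH1 (-0.28) and IRF7 (-0.26) were lower, and OAS2 (0.38) and RSAD2 (0.25) were higher. The lowest adjusted p was 0.78 and the median was -0.02. Counts of 0 members were also returned by each of the 24 alternative settings for both exposures and for the difference between them.

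The intervals bound what was missed. For IFIT1 the difference from medium lay between -0.56 and 0.02 at 2.5 µg/mL and between -0.58 and -0.0013 with ions (95% intervals from limma). Over all 40 members the bounds reached from -0.56 to 0.78 at 2.5 µg/mL and from -0.58 to 0.65 with ions. A fall of the size seen for the 11 members at least 2-fold lower at 25 µg/mL is therefore outside the interval of each of them, and smaller shifts that lie within these intervals were not excluded.

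**Figure D5:**
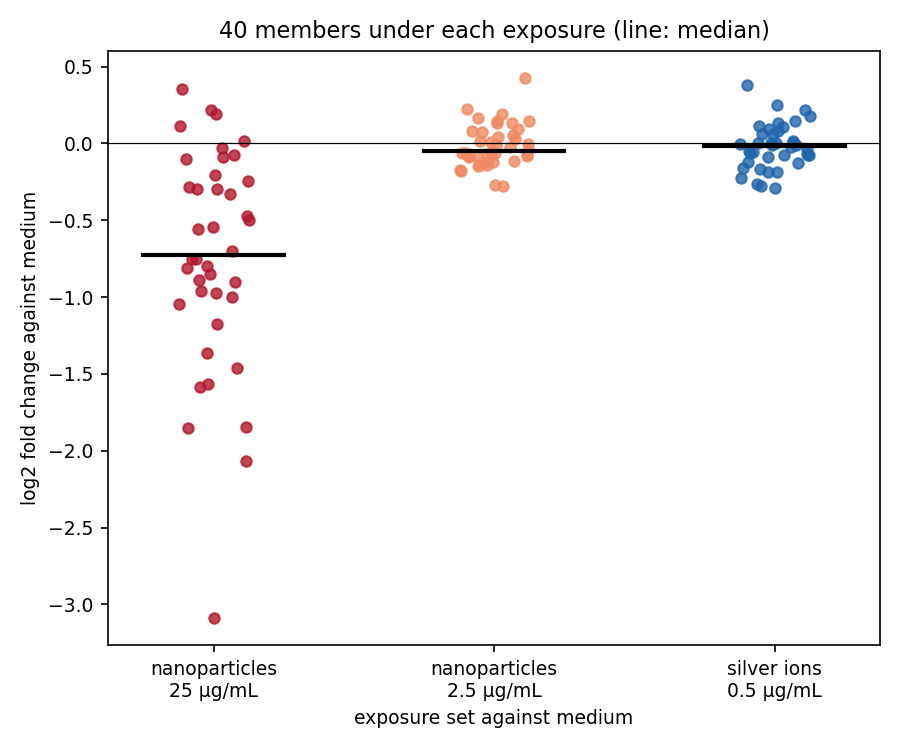
Log2 fold change against medium of each member (points) under 25 µg/mL nanoparticles, 2.5 µg/mL nanoparticles and 0.5 µg/mL silver ions, with the median of the 40 as a line. The medians are -0.73, -0.05 and -0.02. The 3 columns share the same medium arrays.

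The high dose also stood apart from the milder exposures directly. Against 2.5 µg/mL nanoparticles, 27 members were lower and 1 higher at 25 µg/mL, with 20.3% and 13.7% of all genes in those directions, and the median was -0.70. Against silver ions, 28 were lower and 1 higher, with 18.6% and 13.7% of all genes, and the median was -0.68. These comparisons share the arrays at 25 µg/mL with the one against medium. Lower in all 3 were 27 members, a count not taken over all genes. The additional one against ions was OAS2 (-0.48, limma adjusted p = 0.0081), which read 4.29, 4.11 and 4.32 at 25 µg/mL and 4.94, 4.43 and 4.80 with ions. On the log2 scale IFIT1 stood at -2.82 against 2.5 µg/mL and at -2.80 against ions, both past the threshold. TRIM25 was higher by 0.41 and 0.51 in these comparisons on the deposited scale.

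Between 2.5 µg/mL nanoparticles and ions, 0 members and 0% of all genes passed limma's adjusted threshold. At an unadjusted p under 0.05 there were 6 members and 8.77% of all genes (1735), and the lowest adjusted p of a member was 0.50.

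Counts for genes upstream of the members at 25 µg/mL are to be read against the 19.3% of all genes called lower and the 14.1% called higher. Of the 6 interferon genes measured, 0 were called (limma, 2 at an unadjusted p under 0.05), and their levels in medium were between 3.22 and 4.68, below the median of all genes. In the direct comparisons IFNL1 was lower than at 2.5 µg/mL (-0.28, adjusted p = 0.047) and IFNL2 lower than with ions (-0.42, adjusted p = 0.0072), both named after their values were seen. Among 9 receptor and kinase genes, 4 were lower and 0 higher. IL10RB, a subunit of the type III receptor, fell by 0.78, IFNAR2 of the type I receptor by 0.55, IFNLR1, the other type III subunit, by 0.42 and IFNGR2 by 0.27. The kinases JAK1, JAK2 and TYK2 were not called, at -0.09, 0.01 and -0.05.

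Of 8 negative regulators, 3 were lower and 2 higher, against 19.3% of all genes lower and 14.1% higher. IRF2, a repressor at the response element, fell by 0.91, PIAS1, a SUMO ligase, by 0.81 and the phosphatase PTPN6 by 0.49. SOCS3, an inhibitor of JAK kinases, was 0.67 higher on the deposited scale, and at 0.05 and 0.24 after poly-A and hybridization scaling it was not called. The phosphatase PTPN2, named after its value was seen as the other higher gene, stood at 0.45 on the deposited scale and at -0.16 and 0.03 after these scalings. In the 12 genes between nucleic acid sensing and IRF3, 2 were lower and 2 higher, close to the shares over all genes. TRAF3, an adaptor ligase on the way to interferon induction, rose by 1.24 and stayed higher after poly-A scaling (0.63, limma adjusted p = 0.015) and hybridization scaling (0.82). CGAS, the cytosolic DNA sensor, rose by 0.87, was still called after hybridization scaling (0.44) and was not called after poly-A scaling (0.26, adjusted p = 0.30). TRIM14, an adaptor at MAVS, fell by 1.25 and the kinase TBK1 by 0.32.

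Genes that interferon induces but that were not among the 41 were 33 in number, of which 12 were lower, 3 higher and 18 not called, against 19.3% of all genes lower and 14.1% higher. Their median was -0.18. EPSTI1 fell by 1.37, TRIM14 (also counted above) by 1.25, GBP2, a guanylate-binding GTPase, by 0.90 and APOL6 by 0.88. The 3 higher ones, named after their values were seen, were SLFN5 (0.62), TRIM38 (0.35) and IFI16 (0.30) on the deposited scale, and none was called after either control scaling, where TRIM38 (-0.26 and -0.08) and IFI16 (-0.31 and -0.12) turned negative. In antigen presentation by MHC class I, much of which interferon raises, 11 of 14 genes were lower and 0 higher, against the same shares of all genes, with a median of -0.48. PSMB9 and PSMB8, subunits of the immunoproteasome, fell by 1.15 and 1.02, the peptide-loading protein TAPBP by 0.87 and the trimming peptidase ERAP1 by 0.86. The peptide transporter gene TAP1 stood at 0.25 and was not called (adjusted p = 0.11). No gene of these 6 lists was called under either milder exposure.

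Values that moved with the members were checked on the same arrays. The summed level of 10 epithelial and enterocyte markers, led by KRT18, was 15.13 to 15.20 at 25 µg/mL and 15.09 to 15.19 in medium on the log2 scale, with 5 lower and 1 higher. Such a sum mostly follows its highest marker and does not show that the others kept their level. The median log2 fold change of the 10 was -0.30. At or above the median level of all genes were 6 of them at 25 µg/mL and 8 in medium. Calls in these marker lists are to be read against 19.3% of all genes lower and 14.1% higher. For 6 leukocyte markers, led by LYZ, the sum was 8.08 to 8.78 at 25 µg/mL, 9.04 to 9.35 at 2.5 µg/mL, 8.96 to 9.48 with ions and 9.23 to 9.56 in medium, with 2 lower and 1 higher. The highest of these markers averaged 7.68 at 25 µg/mL and 8.99 in medium, whereas the median log2 fold change of the 6 was -0.06. For 8 fibroblast markers, led by COL1A1, the sum was 9.38 to 9.44 at 25 µg/mL, 9.70 to 9.93 at 2.5 µg/mL, 9.54 to 9.93 with ions and 9.70 to 9.94 in medium, with 2 lower and 1 higher. Their median log2 fold change was -0.03. Of 4 plasmacytoid dendritic cell markers, led by TCF4, 1 was higher (sums of 9.53 to 9.84 at 25 µg/mL and 9.68 to 9.85 in medium), and of 4 endothelial markers, led by PECAM1, 1 was higher (6.80 to 6.97 and 6.64 to 6.77). The part of these levels in the falls was not tested.

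Control probes moved too. Poly-A spike-in controls were 0.61 higher at 25 µg/mL than in medium and hybridization controls 0.43 higher. Scaling each array on the poly-A controls gave a median of -0.62 over all genes, with 179 higher and 14081 lower, and scaling on the hybridization controls gave -0.44, with 508 higher and 12835 lower. These scalings move all genes of an array by the same amount, so they leave the difference between the members' median and that of all genes at -0.71 by construction. Arrays correlated at 0.994 to 0.997 within groups and at 0.980 to 0.983 between 25 µg/mL and medium. By these correlations no array stood apart from its group, but in the control probes 2 did. The second array at 25 µg/mL had a poly-A mean of 5.56, against 6.21 and 6.31 on the others of its group and 5.31, 5.54 and 5.39 in medium. The first ion array had the lowest means of the 12 (poly-A 4.95, hybridization 10.29).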

How the data were processed

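RNA of 12 samples, labelled as 4 groups of 3, was hybridised to 1-colour Affymetrix expression arrays. The authors deposited log2 values, and per the submitters' processing notes RMA and Partek were used (versions not given in the sources used here). The values were used as deposited. RMA gives all arrays nearly the same distribution (column medians between 4.72 and 4.79), so a shift of all RNA would not show.
Of 54675 probe sets, 62 were controls, 41091 had 1 symbol, 1801 had several and were not used, and 11721 were not listed. Symbols were updated through gene IDs, with DDX58 listed as RIGI. The probe set with the highest mean over the 12 arrays stood for each of 19775 genes.
Fits used limma 3.58.1 in R 4.3.3 (lmFit and eBayes, 4 groups, 8 residual degrees of freedom, Benjamini-Hochberg over all genes, threshold 0.05), figures matplotlib 3.10.9. The fit across all genes was tested on simulated data. Members, gene lists and marker lists were chosen with earlier results of these data known, so no list has a test of its own. Every array value is given for the called members with the 10 largest falls and for all called higher, and up to 4 called genes are named from each other list by size of change. PTPN2, SLFN5, TRIM38, IFI16, IFNL1, IFNL2, TAP1, JAK1, JAK2, TYK2, MX1, OAS2, IRF1 and the members with an unadjusted p under 0.05 were singled out after their values were seen. Alternatives were quantile normalization, median centring, scaling on 24 poly-A or 18 hybridization control probe sets, dim genes left out, averaged probe sets, every probe set, an intensity trend, array weights, only 2 groups, stricter thresholds and each array left out. Precision is limited by 3 arrays a group. No depth applies to arrays.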

Additional observations from a re-analysis of the deposited data

How the results depend on the processing

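Of the 28 members called at 25 µg/mL, 24 kept direction and call under each of 22 settings of normalization, probe set choice, model and arrays, all at the threshold of 0.05. The exceptions were ISG20 and DDX58, which missed the threshold after quantile normalization (adjusted p = 0.065 and 0.074) and without single arrays, PARP14 with averaged probe sets, and TRIM25. The count of members lower ran from 25 to 37 of 40 over the settings that kept all members, the 2-fold limit apart. The highest counts came from control scaling, under which 14081 (poly-A) and 12835 (hybridization) of all 19775 genes were called lower. With 1 array left out, 25 to 29 members were lower, and 3188 to 3999 of all genes. Requiring at least 2-fold left 11 members against medium, all of them lower, where 447 of all genes (2.26%) were lower by that limit. It left 13 members against 2.5 µg/mL and 12 against ions, for which no count over all genes was taken. The median of the members, -0.73, was -0.68 after quantile normalization, -1.34 and -1.15 after poly-A and hybridization scaling, -0.90 without dim genes (25 members), -0.54 with averaged probe sets, and -0.81 (without the third medium array) to -0.63 (without the second) with 1 array left out.

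Direction turned for 7 members, of which TRIM25 had been called. After poly-A and hybridization scaling TRIM25 was -0.26 and -0.073, IFI44L -0.40 and -0.21, RSAD2 -0.42 and -0.23, IRF1 -0.60 and -0.41, and DHX58 -0.50 and -0.31. Of these, IRF1 was called lower under both (limma adjusted p = 0.020 and 0.045) and DHX58 under poly-A scaling alone (adjusted p = 0.047). These scalings lower every difference alike, so any small positive value turns by construction. IRF1 was also -0.011 after median centring. OASL was 0.0014 after quantile normalization. With 1 array left out, values ran from -0.11 to 0.043 for OASL, -0.067 to 0.11 for IRF1, -0.013 to 0.20 for DHX58 and -0.16 to 0.075 for TRIM22. Poly-A scaling gave 134 genes higher and 16869 lower against 2.5 µg/mL, and 141 and 17368 against ions. Hybridization scaling gave 569 and 9067, and 498 and 13817.

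No paired analysis was possible because the labels give no replicate numbers shared between groups. Signal over background limits the dim members, since no detection calls were used, and a fall to the array's floor understates a fold. The direction of a change in total RNA cannot be read from these values.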

Other observations

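Among the members, the other probe sets of DDX58 moved more than the one chosen for its level. One averaged 5.75 at 25 µg/mL, 6.90 at 2.5 µg/mL, 6.60 with ions and 7.06 in medium, a difference of -1.31 from medium at 25 µg/mL, against -0.30 on the brighter probe set. ISG20 had a second probe set at -0.66 (limma adjusted p = 0.024 over every probe set), against -0.33 on the one used. OAS2, RSAD2 and TRIM22 averaged 4.28, 3.40 and 4.14 at 2.5 µg/mL and 4.72, 3.67 and 4.40 with ions, differences that reached an unadjusted p under 0.05 between those exposures and that limma did not call after adjustment. Of the 6 members that reached it, 4 were lower at 2.5 µg/mL, IFI44 (-0.20) among them. UBE2L6 (0.22) and HERC6 (0.33) were higher there, and 8.77% of all genes reached it in either direction.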
